A study of Mus musculus with 6 samples.

Results

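Liver tumour was compared with healthy liver in mice that lack Fah, fumarylacetoacetate hydrolase. The samples were chosen by their labels alone and make up 3 of the 6 arrays of the series: 1 healthy liver and 2 tumours, each hybridised to 1 single-colour Agilent array. All 3 carried the allele Fah_del_tm1Mgo on the BL6 background. The healthy liver (Fah_100%) came from a mouse kept on NTBC without a break, at 7.5 µg/ml in the drinking water. The tumours came from mice that went through 2 courses of NTBC withdrawal: tumour 1 is labelled Fah_off and tumour 2 is labelled Fah_2xoff/on. Tumour and withdrawal thus go together on these 3 arrays, and their effects cannot be told apart. The labels leave unclear in which phase of the drug each tumour liver was taken, and whether a nodule or whole tumour-bearing liver was used. They give neither age nor sex, and do not say that the tumours came from separate animals, so the p-values below measure only the spread between these samples. The other 3 arrays are livers of FCR mice, which carry the same Fah allele together with Rag2_del_tm1Fwa and a tm1Wjl deletion of the common gamma chain of cytokine receptors. They are 1 normal liver on continuous NTBC (FCR_100%) and 2 inflamed livers (FCR_off and FCR_2xoff/on), and served for the spread between arrays and for 1 comparison of responses.

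Fah performs the last step of tyrosine breakdown, and without it reactive intermediates build up in hepatocytes. NTBC blocks an earlier enzyme of the pathway, so that deficient mice stay healthy on the drug and develop liver injury, regeneration and tumours when it is withdrawn. Hepatocellular carcinoma typically loses enzymes of the mature hepatocyte, takes up a fetal liver programme and divides, within a stroma of fibroblasts and immune cells.

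Levels are log2 signals after processing by the scanner software, less the 75th percentile of their array, so that a level of 0 is a bright gene and a difference of 1 is a doubling. Healthy liver and tumour 1 lay on slide 1 and tumour 2 on slide 2, with both regimen and slide changing between the tumours. The healthy array was dimmer, with a 75th percentile of 363 against 811 and 890, and 60.5% of its 43379 spots were well above background against 71.8% and 74.5% on the tumour arrays. No spot was saturated. The number of arrays limits the precision, and with 1 healthy array the spread was taken from the pairs of tumour and inflamed FCR arrays. Where no probe of a gene was well above background in healthy liver, the rise is given as "at least" a fold: the tumour mean against the higher of the gene's own healthy signal and the dimmest signal well above background on that array.

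The labels were looked at through a few genes. Afp, the fetal alpha-fetoprotein, was at 1.81 in healthy liver, against 7.85 and 8.37 in the tumours, a rise of 6.30 ± 0.62 (log2 difference ± SE, n = 1 and 2, limma adjusted p = 0.00319). Alb, serum albumin, was at 10.32 in healthy liver, against 9.15 and 8.79 in the tumours, so hepatocyte RNA was abundant on all 3 arrays (difference -1.35 ± 0.58, adjusted p = 0.251). After quantile normalization the difference of Alb was -0.03. Fah itself gave signal throughout, at -1.62, -2.27 and -1.95. No source places the probe inside or outside the deletion, which leaves the genotype unchecked by it. Il2rg, the common gamma chain gene, stood clear of background in all 3 Fah livers and in no FCR liver.

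Across the genome, 604 genes rose in tumour and 174 fell among 15382 tested, 3.93% and 1.13%, or 5.06% together (limma, Benjamini-Hochberg, adjusted p under 0.05), against 1928 and 931 at an unadjusted p under 0.05. The median difference over all genes was -0.08, and it was -0.19 within slide 1 (tumour 1 minus healthy) and 0.03 for tumour 2. Both tumours lay more than 1 above healthy liver for 2767 genes (18.0%) and more than 1 below for 1498 (9.74%). The tumours themselves lay a median of 0.47 apart, and 2875 genes differed by more than 1 between them. Of the genes tested, 2133 were not well above background in healthy liver, and 246 of those rose. Fits without 1 tumour, here and below, compare 1 array with 1 and take the spread from the inflamed FCR pair alone. A call lost in such a fit is thus not by itself a difference between the tumours. Without tumour 2 the counts were 369 and 93, without tumour 1 they were 476 and 166. With slide as a block they were 1897 and 647. They came to 1476 and 731 without inflamed FCR replicate 1 and to 1537 and 795 without replicate 2, where the spread rests on the tumour pair alone. The processing mattered too: normexp background correction, moved the share of calls that were rises from 77.6% to 59.2%, and centring on the array median moved it to 67.0%.

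**Figure D1:**
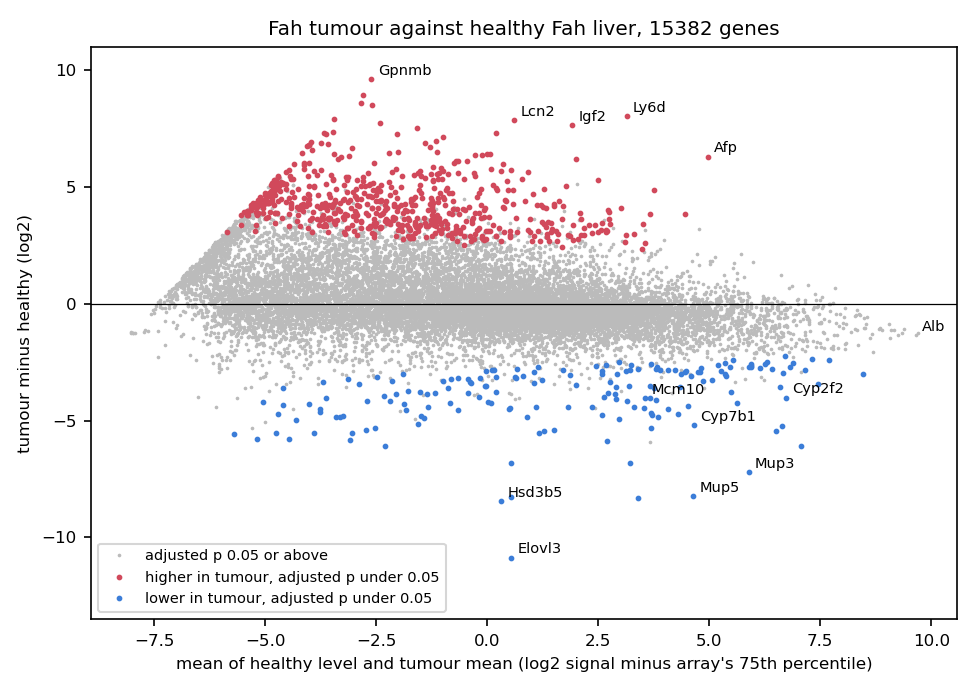
Each point is 1 of 15382 genes, placed by the mean of its healthy level and tumour mean (horizontal axis, log2 signal minus the array's 75th percentile) and by tumour minus healthy (vertical axis, log2). The 604 genes that rose (red) lie mostly at low and middle levels, and the 174 that fell (blue) include bright liver genes such as Mup3, Mup5 and Cyp2f2.

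A set of 15 rises was chosen by the smaller of the 2 tumours' measured differences. The set is no order of size, since 11 of its genes were not well above background in healthy liver and have only a lower bound, which for some lies under the measured rises of genes outside it, such as Gpc3 (6.72). Gpnmb, a glycoprotein of lipid-laden macrophages and some tumours, was at -7.42 in healthy liver, where it was not well above background, and at 1.56 and 2.86 in the tumours. It was at least 160.4-fold higher (adjusted p = 0.00319), but its probes disagree, with differences of 1.41 and 9.63. Tmem54, a membrane protein, was at -6.86 in healthy liver, against 1.66 in both tumours, at least 109.8-fold higher. Krt20, an epithelial keratin of gut and bladder, was at -7.15 against 0.88 and 2.06. Both tumours thus lay far above the healthy array for each of these genes, which had no measured level there.

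Ly6d, a surface protein of squamous epithelium and early B cells, was measured on all 3 arrays, at -0.88 in healthy liver, against 7.01 and 7.30 in the tumours, a rise of 8.04 ± 0.62 (adjusted p = 0.00289). Igf2, the fetal insulin-like growth factor, was at -1.92 against 5.66 and 5.83 (7.67 ± 0.65). Lcn2, the iron-siderophore carrier lipocalin 2 made by injured epithelium and neutrophils, was at -3.33 against 4.05 and 5.02 (7.87 ± 0.86). These 3 genes were among the brighter RNAs of the tumours. Cpa3, a mast cell carboxypeptidase, was at -7.25 against 0.63 and 2.72 and at least 110.6-fold higher. Wnt10a, a secreted Wnt ligand, was at -7.40 against 0.54 and 0.47 and at least 49.2-fold higher. Sult2a6, a sulfotransferase of bile acids and steroids, was at -5.35 against 2.48 and 1.91 and at least 159-fold higher.

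The remaining 6 of the 15 were Eps8l3, Bex1, the aldo-keto reductase Akr1b7, the fatty acid elongase Elovl7, the actin regulator Enah and the serine protease inhibitor Serpinb9g. Akr1b7 was measured in healthy liver, at -3.46, and stood at 3.44 and 4.31 in the tumours. The other 5 were not well above background there and rose by at least 24.4-fold (Enah) to 106.0-fold (Elovl7). In each of the 15 both tumours lay on the same side of the healthy array by the choice of genes.

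A set of 15 falls was chosen in the same way and held Elovl3, Hsd3b5 and Mup3 of the male-biased liver list. Elovl3, a fatty acid elongase, was at 5.96 in healthy liver, against -3.77 and -6.03 in the tumours, well above background in only 1 of them. Its difference was -10.86 ± 0.94 (adjusted p = 0.00307). Hsd3b5, a hydroxysteroid dehydrogenase of male liver, was at 4.54 against -3.62 and -4.19 (-8.45 ± 0.69). Mup5, a major urinary protein, was at 8.77 against 0.73 and 0.30 (-8.25 ± 0.63). Each was far above the 75th percentile in healthy liver, and both tumours lay many doublings lower.

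Mup6 and Mup3, of the same family, fell by 8.32 ± 0.94 and 7.21 ± 0.79. Near-identical copies of the Mup genes could share signal on their probes. The serpin pseudogene Serpina4-ps1 was at 4.66 against -3.91 and -3.28, and fell by 8.25 ± 0.75. Sult2a8, a second sulfotransferase of the family, fell by 6.82 ± 0.70, from 6.62 to 0.29 and -0.71, while Sult2a6 rose. The P450 genes Cyp2c54 and Cyp2c37 fell by 6.82 ± 0.81 and 5.31 ± 0.58. Hsd3b4 fell by 5.53 ± 0.62, though its probes ranged from -5.53 to -1.09. Lcn12, a lipocalin, and Crxos fell by 5.42 ± 0.72 and 5.52 ± 0.82. The list is completed by the muscle myosin Myh2, whose probes disagree from -5.83 to 0.72, and by the olfactory receptors Olfr632 and Olfr677, which were at least 17.1-fold and 10.9-fold lower. Neither receptor was well above background in a tumour, so they have no place in an order of falls, and their bounds lie under the measured fall of Cyp7b1 (-5.19), which is not in the set. The fall of Olfr632 did not pass after quantile normalization (adjusted p = 0.0744), nor that of Myh2 with the mean of its probes (adjusted p = 0.223).

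**Figure D2:**
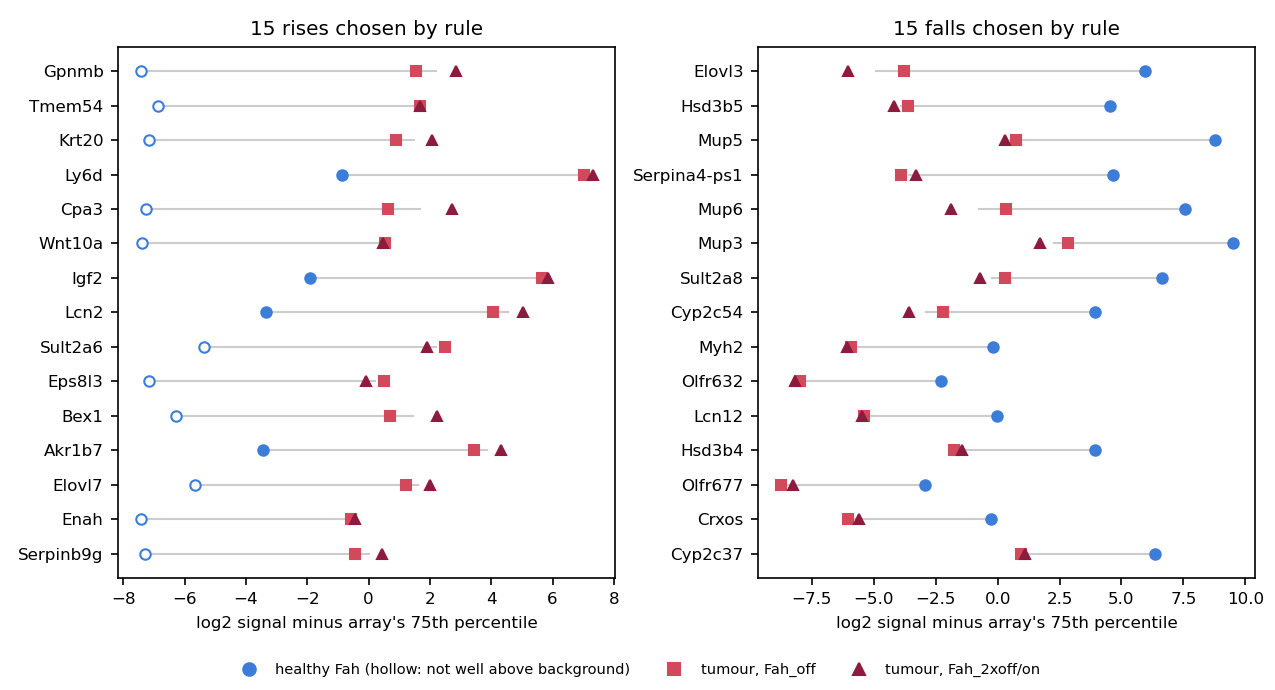
Levels (horizontal axis, log2 signal minus the array's 75th percentile) of the 15 rises and 15 falls chosen by rule, in healthy liver (circle), tumour 1 (square) and tumour 2 (triangle), with a grey line to the tumour mean. Hollow circles mark genes not well above background in healthy liver, as for Gpnmb, while Ly6d, Igf2, Lcn2 and Akr1b7 were measured there.

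Mitosis genes rose together. Of 26 measured genes of mitosis and the spindle 24 rose and none fell, with a median difference of 4.88 against -0.08 over all genes, and 25 lay more than 1 above healthy liver in both tumours. The median level of the list was -3.50 in healthy liver and 1.10 and 1.75 in the tumours. Under the other settings apart from floored values the list had from 17 rises (the authors' values) to 25. Cell cycle genes of late G2 and mitosis are known to share promoter elements: CCAAT boxes bound by NF-Y and the cell cycle homology region TTTGAA, read by the DREAM complex, which represses them in resting cells. The 150 bases before the start site of 6 of them are shown because these genes moved together. Sequences are from RefSeq on GRCm38.p6, written 5′ to 3′ on the gene's strand, with CCAAT and TTTGAA on either strand (ATTGG and TTCAAA on the opposite one) in capitals.
Cdkn3 (chr14:46760391-46760540, + strand): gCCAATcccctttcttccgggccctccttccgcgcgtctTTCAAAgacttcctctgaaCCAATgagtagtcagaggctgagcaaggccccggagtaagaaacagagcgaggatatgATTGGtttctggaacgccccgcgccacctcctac
Ccnb1 (chr13:100786487-100786636, - strand): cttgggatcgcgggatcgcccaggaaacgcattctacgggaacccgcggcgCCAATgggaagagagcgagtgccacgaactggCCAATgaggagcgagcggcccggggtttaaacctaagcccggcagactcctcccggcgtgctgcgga
Ube2c (chr2:164769779-164769928, + strand): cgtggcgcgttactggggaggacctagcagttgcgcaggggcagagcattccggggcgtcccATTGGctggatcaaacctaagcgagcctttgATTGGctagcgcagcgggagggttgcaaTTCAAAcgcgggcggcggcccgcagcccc
Cdk1 (chr10:69352913-69353062, - strand): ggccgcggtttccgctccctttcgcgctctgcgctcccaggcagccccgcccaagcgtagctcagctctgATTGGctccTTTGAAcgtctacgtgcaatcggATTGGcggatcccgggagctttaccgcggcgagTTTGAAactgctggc
Cdc20 (chr4:118437344-118437493, - strand): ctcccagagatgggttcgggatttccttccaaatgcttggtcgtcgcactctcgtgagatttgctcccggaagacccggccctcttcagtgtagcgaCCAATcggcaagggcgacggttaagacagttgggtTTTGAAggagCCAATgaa
Top2a (chr11:99024190-99024339, - strand): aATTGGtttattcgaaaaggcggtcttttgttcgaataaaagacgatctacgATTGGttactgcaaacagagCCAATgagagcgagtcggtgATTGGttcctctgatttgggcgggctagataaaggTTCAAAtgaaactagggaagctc

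Promoters of 300 bases (250 before and 50 after the start) were matched for 12260 of the genes tested, of which 42.2% held CCAAT, 15.7% TTTGAA and 6.26% both. Of the 21 mitosis genes with a promoter in the table, 17 held CCAAT, 15 held TTTGAA and 14 held both. Of 20 replication genes 12 held CCAAT and 3 held TTTGAA, all 3 with both. The GC box GGGCGGG was in 12 of the 21 and 13 of the 20, against 46.2% of all. A match of letters is a description and not a bound site.

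The 6 genes with promoters shown above all rose. Cdkn3, a phosphatase of cyclin-dependent kinases, was at -3.32 in healthy liver, against 2.46 and 3.66 in the tumours (6.38 ± 0.93, adjusted p = 0.00963). Ccnb1, the mitotic cyclin B1, was at -4.97 against 0.59 and 0.77 (5.65 ± 0.71), and Cdk1, its kinase partner, at -3.78 against 1.12 and 1.98 (5.33 ± 0.87). The probes of Cdk1 ranged from 1.64 to 5.33. Cdc20, which activates the anaphase-promoting complex, was at -0.75 against 4.21 and 4.40 (5.05 ± 0.59), and Ube2c, the ubiquitin-conjugating enzyme of that complex, rose by 5.49 ± 0.94. Tpx2, a spindle assembly factor, rose by 5.499 ± 0.82, and the topoisomerase Top2a by 5.02 ± 1.20 (adjusted p = 0.0488). Cdk1, Cdc20 and Top2a were chosen for their promoters after values were seen.

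The mitosis genes that did not pass were Kif11, a spindle motor, and the checkpoint kinase Bub1. Kif11 was at least 10.53-fold higher by its brightest probe (adjusted p = 0.0546), but its probes disagree, with differences of 0.16 and 4.57. The brightest probe of Bub1 differed by -0.19 ± 0.74 and another by 5.58. With the authors' values Cdk1 (adjusted p = 0.0510), Ube2c (0.0570) and Top2a (0.0955) no longer passed.

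DNA replication genes moved less. Of 24 measured genes 6 rose and 1 fell, with a median difference of 1.69. Uhrf1, which maintains DNA methylation behind the fork, was at -3.17 in healthy liver, against 1.48 and 1.72 in the tumours (4.77 ± 0.64). Cdc6, a helicase loader, was at least 9.89-fold higher (adjusted p = 0.0118), though it did not pass with normexp (adjusted p = 0.293). Cyclin E2, Ccne2, was at least 3.40-fold higher without passing (adjusted p = 0.0764). Mcm10, which starts replication forks, went the other way: its probe was at 5.57 in healthy liver, against 1.54 and 1.56 in the tumours, a fall of 4.03 ± 0.56 (adjusted p = 0.00820). The gene has 1 probe, whose specificity was not checked, and the list median in healthy liver was -0.785. The signal may therefore not be that of Mcm10 RNA. Without tumour 2 the count of rises was 2, without tumour 1 it was 4, and without either inflamed FCR array it was 12.

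Fetal and tumour-marker genes rose as a group. Of 21 measured oncofetal and tumour markers 15 rose and none fell, with a median of 4.22 and summed signal of 20.0 in healthy liver against 621 and 662 in the tumours (signal relative to the 75th percentile, added over the list). Besides Afp, Igf2 and Ly6d, Gpc3, the proteoglycan glypican 3 of fetal liver, was at -4.66 against 2.01 and 2.11 (6.72 ± 0.61, adjusted p = 0.00307). Dlk1, a marker of fetal hepatoblasts, was at least 81.1-fold higher (adjusted p = 0.0167). With the authors' values 9 of the list rose and Dlk1 did not pass. The list was not particular to the tumours: inflamed minus normal FCR liver had a median of 3.71. Its summed signal was 21.3 in normal FCR liver against 893 and 522 in the inflamed livers.

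Bile duct genes lay higher too. Of 17 measured bile duct markers 9 rose and none fell, with a median of 3.58. The tight junction gene Cldn7 was at -2.81 in healthy liver, against 3.07 and 2.86 in the tumours (5.77 ± 0.62). Its relative Cldn4 was at least 22.7-fold higher, Mmp7, a matrix metalloproteinase of ductular epithelium, rose by 6.39 ± 0.70, and Prom1, the progenitor antigen prominin, was at least 48.0-fold higher. Without tumour 1 there were 5 rises. With the authors' values 4 of the list rose and Cldn4 did not pass. Summed signal was 19.8 in healthy liver, 206 in tumour 1 and 99.4 in tumour 2. In bulk tissue more cells of a type and more RNA per cell cannot be told apart, here and for every cell type list below.

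Genes of the mature hepatocyte lay lower. By how much depended on the scaling, and how many passed one by one depended on the arrays in the fit. After quantile normalization the median was -0.585 for secreted proteins, -0.88 for transcription factors and -1.11 for P450 enzymes. It was -0.84 for amino acid breakdown, -0.52 for gluconeogenesis and glycogen and -0.50 for fatty acid oxidation. Each is smaller in size than the median given below. All 22 measured secreted proteins differed by less than 0, with a median of -1.42, and 1 passed. That was C8a, a complement component, at 6.01 in healthy liver, against 2.51 and 0.20 in the tumours (-4.66 ± 0.93, adjusted p = 0.0263). It did not pass after quantile normalization (adjusted p = 0.0823) or with the authors' values (0.0913). The complement gene C9, the anticoagulant Proc and the apolipoprotein Apoa2 differed by -2.75 ± 1.08, -2.09 ± 0.53 and -1.95 ± 0.54. Of 19 hepatocyte transcription factors 0 passed in limma (6 at an unadjusted p under 0.05), with a median of -1.01. The drug-sensing receptor Nr1i3 differed by -2.40 ± 0.61 (adjusted p = 0.0600), Cebpa by -2.17 ± 0.79, the glucose-responsive factor Mlxipl by -1.96 ± 0.54 and Cebpb by -1.88 ± 0.78. Without inflamed FCR replicate 1 or 2 the secreted proteins had 10 and 12 falls and the factors 4 and 5.

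The cytochrome P450 enzymes, which oxidise drugs, steroids and fatty acids, had the larger shift. All 24 measured genes of the list differed by less than 0, with a median of -1.90, and 6 fell, Cyp2c54 and Cyp2c37 among them. The list does not hold every P450 gene. Of 11 measured genes of the Cyp2c family 5 fell, with differences from -6.82 to 2.87, and Cyp2s1, outside the list, rose. Cyp4a12a, a fatty acid hydroxylase of male liver, was at 6.65 in healthy liver, against 1.98 and 1.89 in the tumours (-4.72 ± 0.60, adjusted p = 0.00613). Cyp2f2, of periportal hepatocytes, was at 8.73 against 4.95 and 4.49 (-4.02 ± 0.54), and Cyp2j5 fell by 4.48 ± 0.78. Cyp2c29 fell by 2.70 ± 0.62 (adjusted p = 0.0433) and no longer passed without tumour 1 (0.0907) or without tumour 2 (0.110). With the authors' values Cyp2j5 (0.0560) and Cyp2f2 (0.0519) did not pass. Without inflamed FCR replicate 1 or 2 the falls numbered 15 and 16. Summed P450 signal was 3524 in healthy liver and 1077 and 999 in the tumours.

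Bile acid genes followed. Of 16 measured genes of bile acid synthesis and transport 5 fell and none rose, with a median of -1.79. Cyp7b1, of the alternative synthesis pathway and also biased to male liver, was at 7.26 against 2.86 and 1.27 (-5.19 ± 0.76, adjusted p = 0.00988). Cyp8b1, the sterol hydroxylase that makes cholic acid, fell by 4.43 ± 0.87. The uptake transporter Slc10a1 fell by 3.54 ± 0.74, and the conjugating enzymes Baat and Slc27a5 by 2.81 ± 0.61 and 2.57 ± 0.56. Without tumour 2 Slc10a1 (adjusted p = 0.0632), Baat (0.244) and Slc27a5 (0.0890) did not pass, nor did Slc27a5 without tumour 1 (0.117). Cyp8b1 did not pass with the authors' values (0.0720). The list had 10 falls without either inflamed FCR array.

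In the urea cycle 1 of 8 genes fell, with a median of -1.09: Otc, ornithine transcarbamylase, at 6.13 against 3.03 and 3.08 (-3.08 ± 0.53, adjusted p = 0.0165). The liver glutaminase Gls2 differed by -2.21 ± 0.56. Of 27 genes of amino acid breakdown 2 fell, with a median of -1.43. These were Hal, which opens histidine breakdown, by 3.32 ± 0.63 and Tdo2, which opens tryptophan breakdown, by 2.91 ± 0.57. Afmid, the next step of the tryptophan pathway, differed by -3.09 ± 0.76 (adjusted p = 0.0535) and Uroc1, of the histidine pathway, by -2.17 ± 0.74. Without tumour 2 Otc (adjusted p = 0.0584), Hal (0.0819) and Tdo2 (0.132) did not pass. Leaving out either inflamed FCR array instead gave 3 falls in the urea cycle and 13 in amino acid breakdown.

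In gluconeogenesis and glycogen metabolism the median was -1.33, and the single call was a rise of Pck2, the mitochondrial PEP carboxykinase, from -1.79 to 1.30 and 1.58 (3.23 ± 0.63, adjusted p = 0.0244). The glucose-releasing phosphatase G6pc differed by -1.88 ± 0.74. In glycolysis 1 of 23 genes rose, a share near the 3.93% of all genes tested: Pfkp, the platelet-type phosphofructokinase, by 3.19 ± 0.66 (adjusted p = 0.0303). Hexokinase Hk2 differed by 3.48 ± 1.17 and pyruvate kinase Pkm by 2.61 ± 0.65, and neither passed. Without tumour 1 and without tumour 2, Pck2 (adjusted p = 0.0696 and 0.130) and Pfkp (0.0973 and 0.163) did not pass. Leaving out inflamed FCR replicate 1 or 2 gave 6 falls in gluconeogenesis and glycogen either way, and 5 and 6 rises in glycolysis.

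Lipid genes lay lower in the main. Of 18 lipogenesis genes 1 rose and 1 fell, with a median of -1.34. Scd2, the desaturase of fetal and extrahepatic tissue, was at -0.13 in healthy liver, against 4.03 and 3.00 in the tumours (3.65 ± 0.79, adjusted p = 0.0347). The liver desaturase Scd1 differed by -3.34 ± 1.49 (adjusted p = 0.276) and Thrsp by -4.05 ± 1.59. Lpin1, a phosphatidate phosphatase, fell by 3.00 ± 0.57. Scd2 did not pass without tumour 1 (adjusted p = 0.0869), nor Lpin1 without either tumour (0.0922 and 0.113). The list had 7 and 8 falls without inflamed FCR replicate 1 or 2.

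Of 24 genes of fatty acid oxidation and PPAR-alpha targets 2 fell, with a median of -1.07. Acaa1b differed by -3.24 ± 0.78 (adjusted p = 0.0506) and Pdk4 by 2.63 ± 0.80. In cholesterol synthesis 0 of 19 genes passed in limma (3 at an unadjusted p under 0.05), with a median of -1.11. Pmvk and Sc5d differed by -2.05 ± 0.65 and -1.82 ± 0.60. The falls without inflamed FCR replicate 1 or 2 were 7 and 8 in fatty acid oxidation and 2 and 3 in cholesterol synthesis.

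Sex-biased genes stood out among the hepatocyte genes. All 11 measured male-biased liver genes lay more than 1 below healthy liver in both tumours, 6 fell, and the median was -3.72. Elovl3, Hsd3b5, Mup3, Cyp7b1, Cyp4a12a and the complement gene C6 (-3.33 ± 0.79, adjusted p = 0.0475) were the 6. The male-biased programme is known to depend on pulsed growth hormone. Without tumour 2 the fall of C6 did not pass (0.191), and without inflamed FCR replicate 1 or 2 the list had 10 and 11 falls. Of 12 female-biased genes 2 rose, with a median of 1.55 that was -0.28 among genes above the floor on all arrays. Cux2, a repressor whose own expression is female-biased in liver, was at least 5.38-fold higher (adjusted p = 0.0253), but did not pass without tumour 2 or with normexp (0.625). A1bg was at least 8.44-fold higher without passing (adjusted p = 0.242). Of the female-biased genes 4 rose without either inflamed FCR array and 1 without tumour 2.

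The Y-linked genes Ddx3y and Eif2s3y, looked at after values were seen, were on in all 3 livers, at 1.99, 1.08 and 1.31 and at 2.44, 1.88 and 1.96. Of 14 genes of the growth hormone and IGF axis 1 fell, with a median of -0.97. That was the growth hormone receptor Ghr, at 5.90 against 3.07 and 2.91 (-2.91 ± 0.54, adjusted p = 0.0207). It did not pass without tumour 1 (0.0605) or tumour 2 (0.103). Igf1 differed by -1.52 ± 0.56, its binding partner Igfals by -2.61 ± 1.25 and the receptor Igf1r by 2.47 ± 0.73. The axis had 3 and 4 falls without inflamed FCR replicate 1 or 2.

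**Figure D3:**
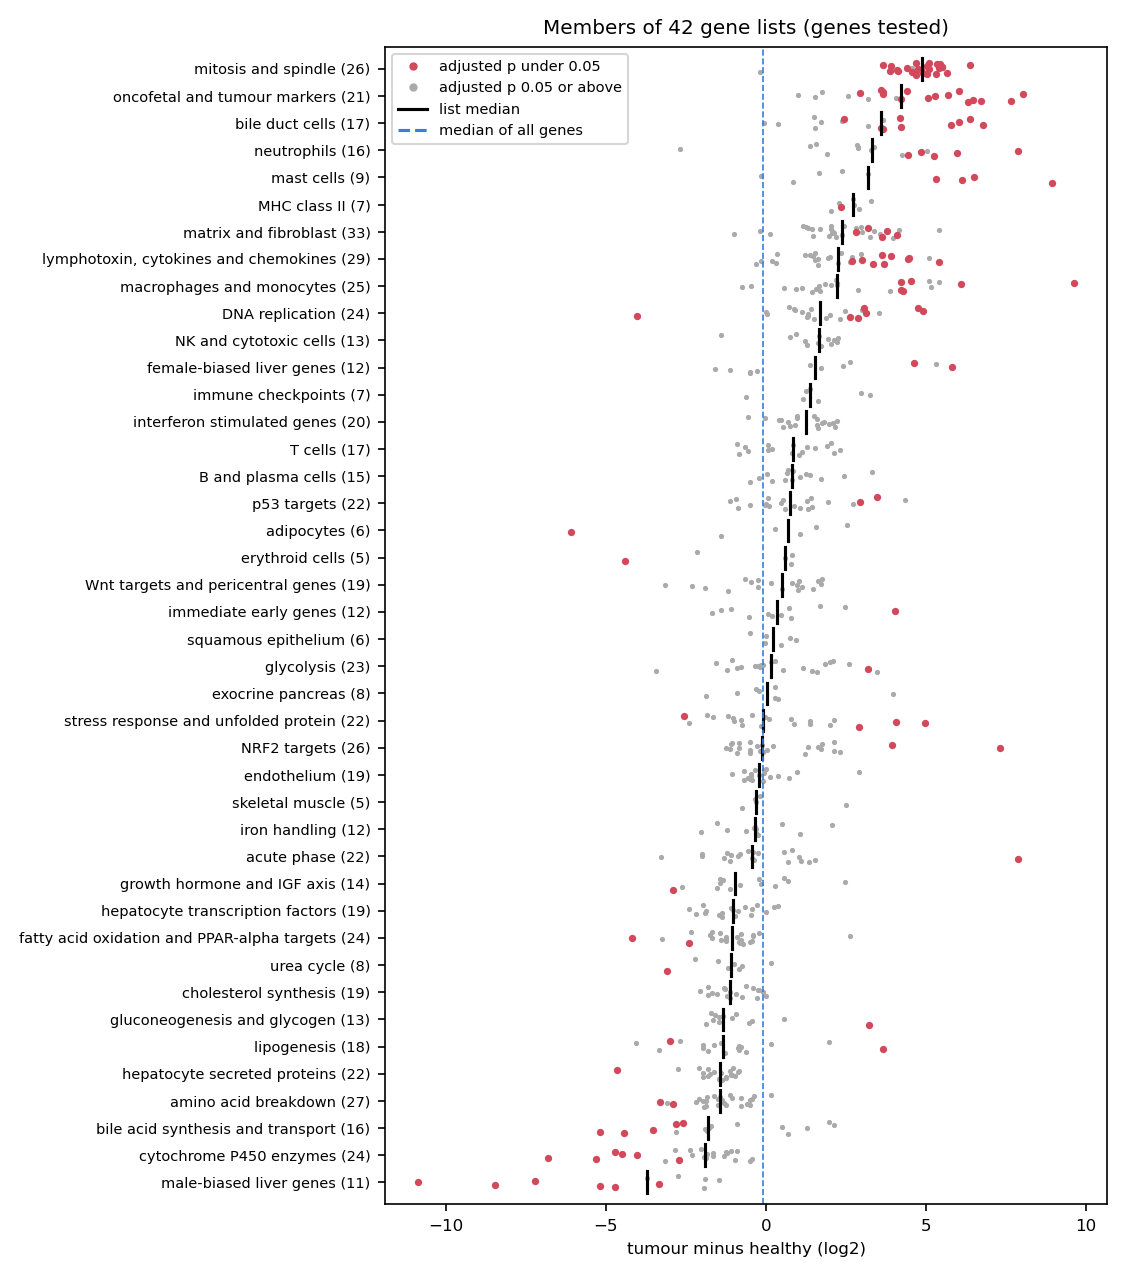
Each dot is a member of 1 of 42 gene lists (number of genes tested in brackets), placed by tumour minus healthy (horizontal axis, log2). Red dots passed (adjusted p under 0.05), black bars are list medians and the dashed line is the median of all genes (-0.08). The mitosis list has the highest median (4.88) and the male-biased list the lowest (-3.72).

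Stress programmes were mixed. Of 26 NRF2 targets, genes of the antioxidant response, 2 rose, against 3.93% of all genes tested. Their median was -0.11 and changed sign with the setting, to 0.66 after quantile normalization. Slc7a11, the cystine transporter, was at -7.33 in healthy liver, against 0.92 and -0.95 in the tumours, at least 34.3-fold higher (adjusted p = 0.00774). Cbr3, a carbonyl reductase, rose by 3.94 ± 0.84. The heme oxygenase Hmox1 and the exporter Abcc4 differed by 2.31 ± 0.61 and 2.14 ± 0.70. With the authors' values Slc7a11 (adjusted p = 0.0780) and Cbr3 (0.0661) did not pass. The rises numbered 8 without either inflamed FCR array and 5 after quantile normalization. The antioxidant element TGACNNNGC was in 7 of 22 matched promoters of the list and in 16.3% of all.

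Of 22 genes of the integrated stress and unfolded protein responses 3 rose and 1 fell, with a median of -0.10, which changed sign under other scalings. The serine synthesis enzymes Psat1 and Phgdh rose by 4.97 ± 0.61 (adjusted p = 0.00553) and 4.05 ± 0.61, and the stress factor Atf3 by 2.90 ± 0.62. Psat1 was at -3.68 in healthy liver, against 1.35 and 1.23 in the tumours. Herpud1, of degradation at the endoplasmic reticulum, fell by 2.55 ± 0.56. Without tumour 1 and without tumour 2, Atf3 (adjusted p = 0.116 and 0.226) and Herpud1 (0.0677 and 0.243) did not pass. There were 4 rises and 4 falls without either inflamed FCR array.

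Of 22 p53 targets 2 rose, against 3.93% of all genes tested, with a median of 0.75. The adenylate kinase Ak1 rose by 3.47 ± 0.71 and the AKT inhibitor Phlda3 by 2.93 ± 0.68, but neither passed without tumour 1 (adjusted p = 0.131 and 0.140) or without tumour 2 (0.0747 and 0.0983). Leaving out inflamed FCR replicate 1 or 2 gave 4 and 5 rises. The death gene Pmaip1 differed by 4.34 ± 1.11 (adjusted p = 0.0622). Among 12 immediate early genes Ier3, a survival gene, rose by 4.03 ± 0.63, and Klf6 differed by 2.47 ± 0.72. The rise of Ier3 did not pass with the authors' values. Among 12 iron genes 0 passed in limma (2 at an unadjusted p under 0.05). Tfr2, the hepatocyte transferrin receptor, differed by -2.01 ± 0.57, and Id1, which responds to BMP, by 2.08 ± 0.94. Leaving out either inflamed FCR array gave 3 rises among immediate early genes, and 1 rise and 2 falls among iron genes.

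Stroma genes lay higher in tumour. Of 33 measured genes of matrix and fibroblasts 5 rose and none fell, with a median of 2.39, and 26 lay more than 1 above healthy liver in both tumours. Col1a2, a chain of fibrillar collagen, was at 0.93 in healthy liver, against 4.76 and 4.37 in the tumours (3.63 ± 0.59, adjusted p = 0.0132). Col5a2 rose by 4.09 ± 0.75, the gelatinase Mmp2 by 3.79 ± 0.88, the receptor Pdgfra by 3.18 ± 0.74 and the crosslinking enzyme Loxl2 by 2.83 ± 0.62. Col1a1 differed by 3.98 ± 1.11 (adjusted p = 0.0817) and the macrophage elastase Mmp12 was at least 10.4-fold higher (0.0782). Without tumour 1 Col5a2 (adjusted p = 0.0657), Mmp2 (0.191), Pdgfra (0.173) and Loxl2 (0.130) did not pass, and without tumour 2 Pdgfra (0.0818) and Loxl2 (0.275) did not. The count of rises was 2 without tumour 1, 8 without tumour 2 and 21 without either inflamed FCR array.

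Mast cell genes rose in part. Of 9 measured mast cell markers 4 rose, with a median of 3.21. Besides Cpa3 these were the chymase Cma1, at -4.38 in healthy liver, against 0.83 and 3.40 in the tumours (6.499 ± 1.002, adjusted p = 0.0116), the protease Mcpt4 (6.12 ± 1.09) and the tryptase Tpsb2, at least 24.5-fold higher. Tumour 2 lay above tumour 1 for all 4. Summed signal was 0.869 in healthy liver, 7.50 in tumour 1 and 37.4 in tumour 2, and 5 markers were well above background in healthy liver against 9 in each tumour. With the authors' values Cma1 (adjusted p = 0.0616), Mcpt4 (0.0742) and Tpsb2 (0.0872) did not pass.

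Macrophage and monocyte genes rose in part. Of 25 measured markers 6 rose and none fell, with a median of 2.22: Gpnmb, Trem2, Ms4a7, Cd14, Lgals3 and Ccr2. Trem2, a receptor of lipid-associated macrophages, was at -3.76 against 2.41 and 2.28 (6.10 ± 1.19, adjusted p = 0.0244). Ms4a7 rose by 4.55 ± 0.75, the endotoxin co-receptor Cd14 by 4.30 ± 0.58 and galectin 3, Lgals3, by 4.22 ± 0.73. Ccr2, the receptor that brings monocytes into tissue, was at least 18.6-fold higher. Marco, a scavenger receptor, differed by 5.15 ± 1.41 (adjusted p = 0.0765). With the authors' values Trem2 (0.0762), Ms4a7 (0.0530) and Ccr2 (0.0941) did not pass, and the list had 3 rises. Summed signal was 57.0 in healthy liver against 180 and 276 in the tumours. The count of rises was 10 without tumour 1, 9 without tumour 2, and 19 and 20 without inflamed FCR replicate 1 or 2.

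Of 16 neutrophil genes 5 rose, Lcn2 among them, with a median of 3.32. The alarmins S100a8 and S100a9 rose by 5.27 ± 0.97 and 4.43 ± 0.69. The granule gene Camp was at least 13.6-fold higher, and lactoferrin, Ltf, passed (adjusted p = 0.0360) with a probe not well above background in healthy liver, so its difference has no exact size. Ltf did not pass after quantile normalization (0.0759) or with the authors' values (0.101). S100a8 was lost in the same 2 settings, and Camp with normexp and with the authors' values. Ngp was at least 6.47-fold higher without passing (adjusted p = 0.0834). Only 7 of these genes were well above background in healthy liver, against 16 in each tumour. Without tumour 1 there were 8 rises, without either inflamed FCR array 11, and with the authors' values there were 2.

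Genes of antigen presentation lay higher as well. All 7 MHC class II genes lay more than 1 above healthy liver in both tumours, with a median of 2.74, and all had an unadjusted p under 0.05, but 1 passed. All 7 passed without either inflamed FCR array and with slide as a block. H2-Ab1 was at 2.32 in healthy liver, against 4.64 and 4.68 in the tumours (2.34 ± 0.55, adjusted p = 0.0474), and did not pass without tumour 1 (0.247) or tumour 2 (0.314). H2-Aa differed by 2.92 ± 0.80 and the transactivator Ciita by 3.28 ± 0.87.

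Cytokine and chemokine genes included 9 rises and no fall among 29, with a median of 2.25. Ccl2, which draws monocytes, was at -1.82 against 2.52 and 2.71 (4.43 ± 0.79, adjusted p = 0.0184). Cxcl5, which draws neutrophils, was at least 8.70-fold and Ccl4, which draws T cells and monocytes, at least 22.3-fold higher. Ccl3 was at least 9.71-fold higher without passing (adjusted p = 0.0543). With normexp Cxcl5 (adjusted p = 0.313) and Ccl4 (0.133) did not pass. Without each tumour in turn there were 5 rises, without inflamed FCR replicate 1 or 2 there were 15 and 16, and with the authors' values 1.

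In limma 0 of 17 T cell, 0 of 15 B and plasma cell and 0 of 13 NK and cytotoxic genes passed, with 3, 3 and 4 at an unadjusted p under 0.05. Their medians were 0.86, 0.81 and 1.65, and turned to -0.36, -0.09 and -0.25 with normexp background correction, under which 1 B cell gene rose. Leaving out either inflamed FCR array gave 1, 2 and 1 rises, and slide as a block 3, 2 and 2. Cd8a, a co-receptor of killer T cells, lay at least 4.999-fold higher (adjusted p = 0.203), and Thy1 differed by 2.04 ± 0.73. Jchain, of secreted antibodies, was at -1.36 in healthy liver, against 1.57 and 0.56 in the tumours (2.43 ± 0.75, adjusted p = 0.108), and Cd22, of B cells, differed by 1.71 ± 0.74. The granzyme Gzmb and the granule gene Nkg7 differed by 2.23 ± 0.85 and 2.12 ± 0.81. Summed T cell signal was 3.25 in healthy liver against 4.57 and 3.95 in the tumours, and summed B cell signal was 17.4 against 26.0 and 15.8.

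Among 7 checkpoint genes 0 passed (2 at an unadjusted p under 0.05, limma). Cd274, the ligand PD-L1, differed by 1.62 ± 0.86. Havcr2, which encodes TIM-3, differed by 3.25 ± 1.18, with another probe at -1.57. Among 20 interferon stimulated genes 0 passed in limma (10 at an unadjusted p under 0.05), with a median of 1.25. Ifi44, Ifit2 and Oas1a differed by 2.24 ± 0.67, 2.17 ± 0.68 and 2.09 ± 0.63. Without either inflamed FCR array 8 interferon stimulated genes and 1 checkpoint gene rose.

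Of 22 acute phase genes 1 rose, Lcn2, a share near the 3.93% of all genes tested. Crp differed by -3.28 ± 0.80 (adjusted p = 0.0535) and the fibrinogen chain Fga by -1.99 ± 0.65. Of 19 Wnt targets and pericentral genes 0 passed in limma (3 at an unadjusted p under 0.05). The pericentral enzymes Cyp1a2 and Cyp2e1 differed by -3.15 ± 0.92 and -2.29 ± 0.56 (adjusted p = 0.0530), and the glutamate transporter Slc1a2 by -1.89 ± 0.61. Of 19 endothelial markers 0 passed (1 at an unadjusted p under 0.05), with a median of -0.23 and summed signal of 65.8 in healthy liver against 56.0 and 86.0. Cd34, of endothelium and progenitors, differed by 2.91 ± 0.82. Without either inflamed FCR array there were 3 falls among acute phase genes, 2 rises and 3 falls among Wnt and pericentral genes and 1 rise among endothelial ones.

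Tissues that could lie beside the liver were looked at. Squamous and exocrine pancreas markers gave no call among 6 and 8 genes (0 and 1 at an unadjusted p under 0.05), and skeletal muscle none among 5 (1). Cela3b, a pancreatic elastase, was at least 8.42-fold higher without passing (adjusted p = 0.0524), and muscle actin Acta1 differed by 2.49 ± 0.75. Summed pancreas signal was 1.41 in healthy liver against 0.875 and 1.98 in the tumours. Of 6 adipocyte genes 1 fell, the complement factor Cfd (-6.07 ± 1.26, adjusted p = 0.0303), with summed signal of 7.51 against 13.8 and 28.5. Cfd was well above background in 1 tumour only, and did not pass after quantile normalization (0.0692) or with the authors' values (0.0856). Of 5 erythroid genes 1 fell, the heme synthesis enzyme Alas2 (-4.41 ± 0.76), which did not pass with the authors' values. The part of other tissues in the results above was not tested.

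**Figure D4:**
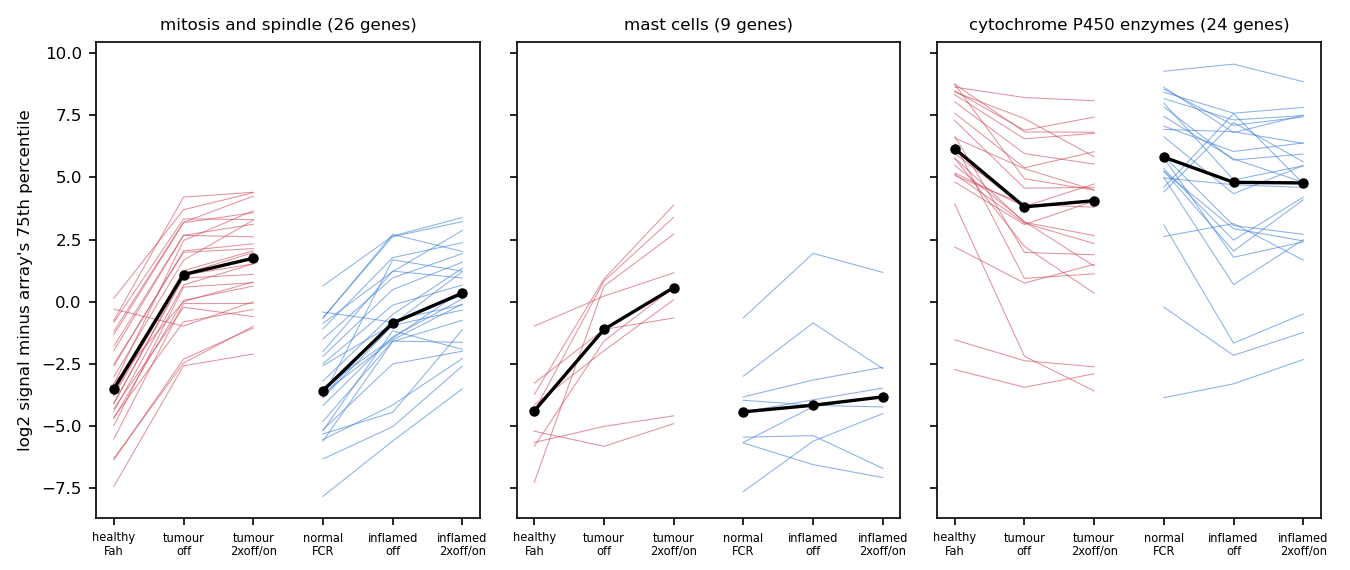
Levels (vertical axis, log2 signal minus the array's 75th percentile) of the members of 3 lists on the 6 arrays, with the list median in black. The median of the mast cell list was -4.39 in healthy Fah liver, -1.11 and 0.57 in the tumours, and -4.42, -4.16 and -3.82 on the FCR arrays, while the mitosis median rose from normal to inflamed FCR liver as well (-3.57 against -0.86 and 0.35).

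The change from healthy liver to tumour was then set against that from normal to inflamed FCR liver under the same NTBC regimens, a pair of comparisons that share no array. The difference of the responses was called for 0 of 15382 genes (0%) in limma, against 332 at an unadjusted p under 0.05, and the smallest adjusted p was 0.795. Over the genes described here the SE of such a difference ranged from 0.75 to 3.14. With slide as a block 48 genes passed with a difference of responses above 0 and 49 with one below 0. The sign does not tell which response was larger in size, since a deeper fall in Fah also gives a value below 0.

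The naming rule for this comparison held only genes that passed. Those below were picked after values were seen, and are given without a call. Mup5 differed by -8.25 ± 0.63 in tumour, and in FCR liver it was at 8.58 when normal and at 4.96 and 6.004 when inflamed, so that the responses lay -5.15 ± 0.88 apart. Cma1 and Mcpt4 lay 5.57 ± 1.42 and 5.41 ± 1.55 apart. In inflamed FCR liver Cma1 was at -3.14 and -2.63, against -3.82 in normal FCR liver. Cldn7 and Col5a2 lay 3.65 ± 0.88 and 4.09 ± 1.06 apart. Afp lay 0.03 ± 0.87 apart, Igf2 -0.72 ± 0.92 and Hsd3b5 -0.52 ± 0.97. The median response of the mitosis list was 4.88 in Fah and 3.06 in FCR liver, that of the NRF2 list -0.11 and 1.65, that of the neutrophil list 3.32 and 3.63 and that of the male-biased list -3.72 and -3.17.

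**Figure D5:**
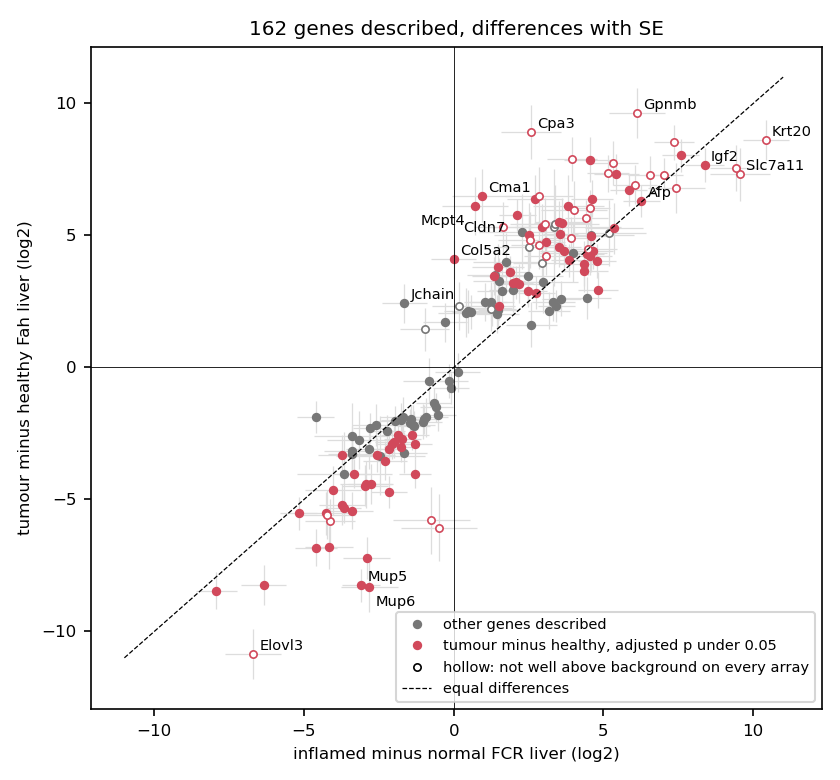
Tumour minus healthy Fah liver (vertical axis, log2 ± SE) against inflamed minus normal FCR liver (horizontal axis, log2 ± SE) for the 162 genes described, with equal differences on the dashed line. Hollow points were not well above background on every array, so their place is not exact. The mast cell genes Cma1 and Mcpt4 lie above the line and Mup5 and Mup6 below it, while Afp and Igf2 lie close to it, and no difference between the axes passed the test.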

How the data were processed

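Liver RNA was measured on 6 single-colour Agilent arrays. Each deposited scanner file holds processed intensity per spot, background-subtracted by Agilent Feature Extraction 10.7.3.1 (protocol GE1_105_Dec08, design on mm9, per the file headers; the submitters' processing notes name version 10.5). The authors' deposited value table holds log2 values with array medians of 6.46 to 6.48; its normalization is not stated in the labels or headers.

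Control and outlier spots were left out and spots of a probe averaged. Values are log2 minus the array's 75th percentile. Accessions were matched to RefSeq on GRCm38.p6: 26912 of 41145 probes were named, for 18342 genes, each by its probe with the highest mean. A gene entered the test if well above background on 2 or more arrays, and the test was that of limma 3.58.1 under R 4.3.3 (lmFit, eBayes with trend) over 4 group means, with 2 residual degrees of freedom, two-sided, Benjamini-Hochberg at 0.05. Each test has n = 1 healthy array and 2 tumours. Among genes with several probes 1979 of 6150 had probe differences more than 1 apart.

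The members and the 42 lists were chosen with earlier results of these data known. Lists were described by counts and medians with no set test. Beside such counts, 3.93% of all genes tested rose and 1.13% fell. Genes were named by rule: 15 rises and 15 falls by measured difference among those that passed, an order that background signal enters, up to 4 members per list, every list member that passed where 6 or fewer did, and 5 followed genes; not every gene so named is printed, and some results are not reported here. Steps were tested on simulated data. Alternatives were normexp (offset 50), quantile normalization, array median, other filters, mean of probes, no trend, the authors' values, Fah arrays alone, slide as a block, leaving out arrays and a common floor of -5.12.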

Additional observations from a re-analysis of the deposited data

Results flagged for a closer look

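For 3 of the genes described, both tumours lay on one side of healthy Fah liver and both inflamed livers on the other side of normal FCR liver, and none of these differences of responses passed in limma (the smallest adjusted p over all genes was 0.795). For Jchain, of secreted antibodies, the tumours lay 2.93 and 1.92 above healthy liver, the inflamed livers 1.89 and 1.40 below normal FCR liver in level, and the responses 4.08 apart. For Il2rg, deleted in FCR mice, the value was 2.41, but its FCR signals were not well above background on any array and measure no response. For Cd22, of B cells, the responses lay 1.99 apart. The inflamed livers differed from normal FCR liver by only -0.36 and -0.20 for Cd22, within the SE of 0.74.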

How the results depend on the processing

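Rises and falls numbered 604 and 174. Moved counts were 325 falls with normexp (471 rises), 389 and 83 after quantile normalization, 390 rises with the array median, 189 and 74 with the authors' values, 1570 and 761 with the Fah arrays alone, and 1897 and 647 with slide as a block. Leaving out 1 array gave 369 to 1537 rises and 93 to 795 falls. A common floor of -5.12 ended every call (0 and 0, smallest adjusted p 0.111, against 1517 and 1009 at an unadjusted p under 0.05), though all 778 kept their direction and 777 still differed by more than 1. Testing only genes above that floor on all 6 arrays, chosen after seeing the data, gave 316 rises and 126 falls. The difference of responses had 0 calls, 2 smaller with normexp, 48 larger and 49 smaller with slide as a block, and from 0 to 1 larger and 0 to 4 smaller without 1 array. In 13 settings, leaving out the floored ones and the stricter filter, 125 genes rose and 51 fell in every one. Of 99 described genes that passed, 48 passed in every setting but the common floor. The median of all genes was -0.08, -0.31 with normexp, -0.46 with the array median and -0.01 after quantile normalization. Bub1 turned to 2.69 with the mean of its probes and to 0.30 without tumour 1 (-0.68 without tumour 2). The labels number no replicates, and slide coincides with regimen among the tumour and inflamed arrays, so the fit with slide as a block is also the one that pairs these arrays by regimen. Signal over background limits the 2133 genes not well above it in healthy liver.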

Other observations

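Several gene families were looked at after values were seen, and are given as counts. All 4 Bex genes rose, with a median difference of 6.57, and 5 of 8 stefins and related genes, inhibitors of cysteine proteases, did so with a median of 4.66. Of 15 S100 genes, calcium-binding proteins of epithelium and myeloid cells, 7 rose, among them S100a6, S100a11 and S100a14. Of 4 metal-binding metallothioneins 2 rose, Mt1 and Mt2, as did 6 of 19 Ccl chemokines and 11 of 31 kinesins. Of all genes tested 3.93% rose.

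In the other direction all 5 major urinary protein genes fell, with a median of -7.21, as did 6 of 15 UDP-glucuronosyltransferases, 4 of 15 carboxylesterases and 5 of 18 Serpina genes. The Sult2a sulfotransferases divided: Sult2a3, Sult2a4 and Sult2a6 rose and Sult2a7 and Sult2a8 fell, of 6 measured. Among 345 olfactory receptors 7 fell and none rose, a small share near that of all genes tested (1.13%). Copies within these families could share signal on their probes.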
